A study of Mus musculus with 18 samples.

Results

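The genes described here are the ligands and receptors of the vascular endothelial growth factor (VEGF) and angiopoietin families. They are the VEGF ligand genes Vegfa, Vegfc and Pgf, the VEGF receptor genes Kdr (VEGFR2), Flt1 (VEGFR1) and Flt4 (VEGFR3), the angiopoietin genes Angpt1 and Angpt2, and the receptor genes Tek (Tie2) and Tie1. They were chosen by symbol from a count table of 54752 genes. All 10 were in the table, and all 10 were among the 21914 genes tested, although Pgf had enough counts to be tested only because of the Cirrhosis libraries. The libraries came from the livers of 18 male C57BL/6 mice, with 6 mice in each of 3 groups and 1 library per mouse. Cirrhosis-PTH mice were injected intraperitoneally with 10% carbon tetrachloride (CCl4) in corn oil, in a volume of 10 µl per g given 2 times weekly, and were dosed by mouth every day with PTH at 0.25 mg per g from a 50 mg/ml preparation. PTH is the Chinese patent medicine Pien Tze Huang, not parathyroid hormone. Cirrhosis mice had the same CCl4 injections and daily double distilled water by mouth. Control mice had injections of corn oil without CCl4 and the same water. All groups ran for 12 weeks, on mice bought at 6 weeks of age, and no group had PTH without CCl4, so that an action of PTH on an uninjured liver was not measured. The protocol describes 45 mice, 15 a group, of which 18 have libraries here. CCl4 is a solvent that hepatocytes convert into a toxic radical, and its repeated injection is a standard way to produce liver fibrosis and cirrhosis in mice.

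VEGF-A is secreted in the liver chiefly by hepatocytes and acts on the sinusoidal endothelium, the fenestrated lining of the liver's capillaries, where its signal through VEGFR2 maintains the cells and their pores. VEGFR1 binds VEGF-A more tightly but signals weakly, and a soluble form of it acts as a trap. Placental growth factor binds VEGFR1 only. VEGF-C is made as a precursor, is cut into its active form outside the cell and binds VEGFR3, a receptor of lymphatic vessels that the sinusoidal endothelium also carries. Angiopoietin-1 activates Tie2 on endothelial cells and keeps vessels quiet, angiopoietin-2 is released by activated endothelium and mostly opposes it, and Tie1 has no ligand firmly assigned to it and modulates Tie2.

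The sequences just before the transcription start sites were compared for 4 of these genes, shown because Vegfa and Kdr were called in the same directions in the comparisons below, Vegfc in the opposite directions, and Flt1 in neither. They come from RefSeq on GRCm38.p6, are written 5′ to 3′ on the gene's own strand and stop at the base before the start; the last 3 bases of the Kdr stretch lie in an exon of the GENCODE annotation. The Vegfa stretch is chr17:46032378-46032627 on the minus strand, that of Kdr chr5:75978456-75978705 on the minus strand, that of Vegfc chr8:54077282-54077531 on the plus strand and that of Flt1 chr5:147726012-147726261 on the minus strand. Capitals mark every match, on either strand, to the letters GGGCGG (a GC box) and AGGAAG (an ETS site). No other motif searched had a match in these 4 stretches.
Vegfa: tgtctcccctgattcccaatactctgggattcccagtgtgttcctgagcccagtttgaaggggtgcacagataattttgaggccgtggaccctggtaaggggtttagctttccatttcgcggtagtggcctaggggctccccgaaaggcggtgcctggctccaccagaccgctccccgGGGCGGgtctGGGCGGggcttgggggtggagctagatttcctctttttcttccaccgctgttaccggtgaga
Kdr: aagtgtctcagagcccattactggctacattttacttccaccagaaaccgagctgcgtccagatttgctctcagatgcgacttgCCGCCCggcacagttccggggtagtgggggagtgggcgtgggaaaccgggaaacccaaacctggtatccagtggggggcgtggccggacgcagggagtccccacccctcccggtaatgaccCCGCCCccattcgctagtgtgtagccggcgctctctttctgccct
Vegfc: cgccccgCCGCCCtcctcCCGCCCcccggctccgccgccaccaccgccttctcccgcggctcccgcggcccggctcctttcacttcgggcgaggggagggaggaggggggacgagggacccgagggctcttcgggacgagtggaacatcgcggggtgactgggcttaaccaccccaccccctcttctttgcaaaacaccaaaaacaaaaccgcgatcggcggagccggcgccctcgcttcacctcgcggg
Flt1: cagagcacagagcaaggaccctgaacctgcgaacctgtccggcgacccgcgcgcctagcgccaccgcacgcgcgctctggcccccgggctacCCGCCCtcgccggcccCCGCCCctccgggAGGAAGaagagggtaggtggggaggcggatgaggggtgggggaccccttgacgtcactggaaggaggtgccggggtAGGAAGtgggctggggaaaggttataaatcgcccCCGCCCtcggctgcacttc

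Counted back from the start to the leftmost letter of the match, the Vegfa stretch held GC boxes at -72 and -62, Kdr at -166 and -45, and Vegfc at -243 and -232. Flt1 held GC boxes at -158, -142 and -19 and ETS letters at -129 and -53. The search also covered ACGTG (the hypoxia response element core), TGANTCA (AP-1) and TGTTTAC (a forkhead site). The RefSeq promoter table used here was matched for 8 of the 10 genes, all but Angpt1 and Angpt2. A GC box stood in at least 1 such stretch of 6 of those 8 genes, against 32.7% of the 32851 mouse promoter stretches of 250 bases, and ETS letters in 2 of the 8, Flt1 and Tie1, against 29.5%. The hypoxia response element core, present in 16.6% of all stretches, was found once among the members, at a second start of Vegfa. Of the 250 bases of that second Vegfa stretch, 218 lie in annotated exons. The Pgf and Flt4 stretches counted here lie wholly in annotated exons, and 212 bases of the Tie1 stretch do. AP-1 letters are in 6.75% and forkhead letters in 3.17% of all stretches, and neither was in a member's. The GC content of the stretches ran from 51.2% in Tek to 71.6% in Vegfc, with a median of 52.4% over all promoters. A match of letters is a description of the sequence, not a measured binding site.

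The libraries held 77.74 to 103.8 M counts in Cirrhosis-PTH, 80.56 to 101.7 M in Cirrhosis and 62.48 to 112.3 M in Control. Loci that collect ribosomal RNA reads took 31.45 to 48.75%, 37.14 to 41.03% and 39.92 to 60.77% of the counts in the same order of groups, and Control replicates 7 and 8 had the fewest counts elsewhere, 30.98 and 24.51 M. No 2 libraries of a group agreed within sampling noise, the lowest chi-square per degree of freedom over 45 pairs being 34.14. The livers expressed the endothelial markers that should accompany the receptors: no gene of the pan-endothelial, sinusoidal or capillary and large-vessel marker lists was at 0 in the table.

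Levels are given as CPM, counts per M counts of the normalised library, and per kilobase of exon where genes are compared with each other. Per kilobase, Vegfa had the highest level of the members in every group, followed by Kdr, Flt4, Tek and Tie1. In Cirrhosis-PTH livers the mean level was 17.7 CPM per kilobase for Vegfa, 8.08 for Kdr, 4.02 for Flt4, 2.89 for Tek and 2.2 for Tie1. The lower members there were Flt1 at 1.12 CPM per kilobase, Vegfc at 0.969, Angpt2 at 0.574, Angpt1 at 0.216 and Pgf at 0.0103. The order was the same in Control livers. In Cirrhosis livers Vegfc, at 1.60 CPM per kilobase, stood above Flt1, at 1.21, and Pgf, at 0.546, above Angpt1, at 0.178. The ranges of Tek and Tie1 over the livers overlapped in all 3 groups. Within libraries, the Tie1/Tek count ratio was at most 1.03 in Cirrhosis-PTH, 0.881 in Cirrhosis and 0.884 in Control livers. Tie1 has 4917 exon bases and Tek 4712, so per kilobase Tek stood above Tie1 in each library. The ranges of Flt1 and Vegfc also overlapped in Cirrhosis-PTH livers, and those of Vegfc and Angpt2 in Control livers. In Cirrhosis livers the ranges of Flt1, Angpt2, Pgf and Angpt1 each overlapped with the next. The ranges of all other neighbours in these orders did not overlap within their group.

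In Cirrhosis-PTH livers, Vegfa and its main signalling receptor Kdr were higher than in Cirrhosis livers, and the ligand genes Vegfc, Pgf and Angpt2 were lower. These 5 of the 10 members passed the threshold (adjusted p under 0.05), where 38.6% of all genes tested did, 20.1% as higher and 18.6% as lower. In all 5 the ranges of the groups did not overlap, which held for 22.8% of all genes tested. Pgf, among them, was tested only because of its Cirrhosis counts. The median change of the 10 members was -0.11 on the log2 scale, against -0.0032 over all genes. The share of members called was near that of all genes, and the count by itself is therefore no result about these families.

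In Cirrhosis livers compared with Control livers, Vegfc, Pgf and Angpt2 were higher, and Vegfa and Kdr were lower. These 5 of the 10 members passed, where 50.5% of all genes tested did, 25.5% as higher and 25.0% as lower. The ranges of the groups did not overlap for 4 of them, all but Angpt2, against 30.3% of all genes. Here too Pgf was tested only because of its Cirrhosis counts. The median of the 10 members was 0.18, against 0.015 over all genes. This comparison and the previous one share the Cirrhosis libraries, so a gene that these libraries hold apart from both other groups takes opposite signs in them.

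No member passed in Cirrhosis-PTH livers compared with Control livers in edgeR's quasi-likelihood test, where 8.82% of all genes did, 6.34% as higher and 2.48% as lower. At an unadjusted p under 0.05 there were 3, Vegfa, Angpt1 and Vegfc. DESeq2 called 2, Vegfa and Angpt1, and limma-voom called 0. The ranges of the groups did not overlap for 1 member, Vegfa, against 4.47% of all genes. The median of the 10 members was 0.07, against 0.0055 over all genes. The remaining members, Flt1, Flt4, Tek and Tie1, passed in none of the 3 comparisons in edgeR's test or DESeq2 with all libraries in the fit, and Angpt1 passed only under DESeq2.

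**Figure D1:**
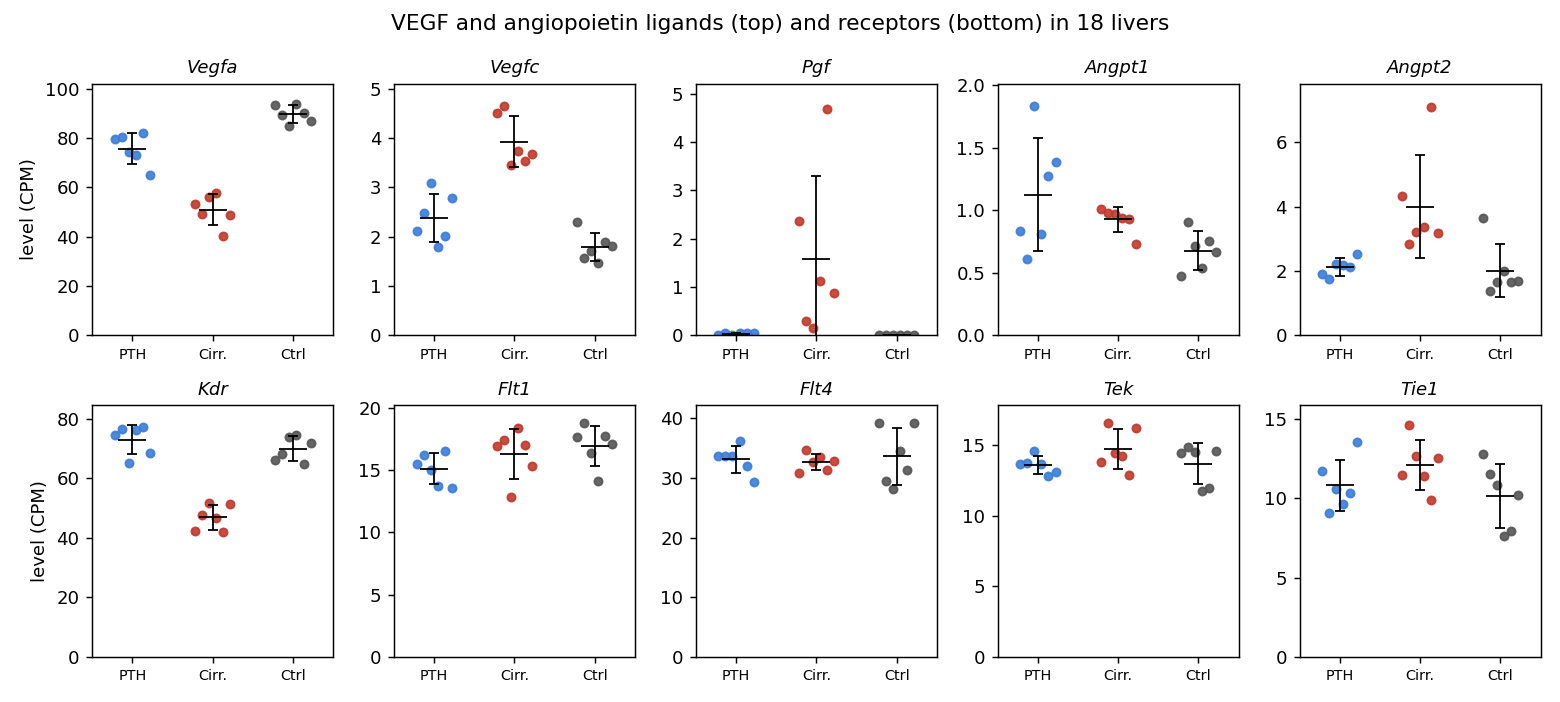
Level of each gene (CPM, vertical axis) in each of the 18 livers, by group (PTH, Cirrhosis-PTH; Cirr., Cirrhosis; Ctrl, Control); points are libraries, the bar is the mean and the whiskers are 1 SD over 6 livers, with the lower whisker of Pgf in Cirrhosis running below the axis. Kdr lay between 65.2 and 77.1 CPM in Cirrhosis-PTH livers and between 42.0 and 51.7 CPM in Cirrhosis livers, while the Flt4 ranges of all 3 groups overlapped.

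Vegfa (GRCm38 coordinates here and below from GENCODE vM21; ENSMUSG00000023951, chromosome 17, 46016993 to 46032369, minus strand), the ligand gene with the highest level, ran from 64.9 to 82.1 CPM in Cirrhosis-PTH livers, with a median of 77.0. It ran from 40.3 to 57.8 CPM in Cirrhosis livers, with a median of 51.2, and from 85.0 to 93.7 CPM in Control livers, with a median of 89.8. On these normalised levels the 3 groups did not overlap, and every Cirrhosis-PTH liver lay between the others. Vegfa rose in Cirrhosis-PTH livers relative to Cirrhosis livers by 0.57 ± 0.08 (log2 ± SE, adjusted p = 4.9e-06). It fell by 0.82 ± 0.08 in Cirrhosis livers relative to Control livers (adjusted p = 2.6e-08). Cirrhosis-PTH livers differed from Control livers by -0.25 ± 0.08, which did not pass (adjusted p = 0.053), although DESeq2 gave an adjusted p of 0.038. A fit of the 12 libraries of those 2 groups alone gave an adjusted p of 0.028, and the call also passed without Cirrhosis replicate 3 or replicate 5.

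Most hepatocyte markers moved in the same directions as Vegfa. Counts for this list and each list below stand beside the shares of all genes called. Those shares were 38.6% in Cirrhosis-PTH against Cirrhosis, 50.5% in Cirrhosis against Control and 8.82% in Cirrhosis-PTH against Control. All 8 of the 8 hepatocyte genes listed fell in Cirrhosis livers relative to Control livers, with a median of -0.67, and 6 of the 8 rose in Cirrhosis-PTH livers relative to Cirrhosis livers, with a median of 0.73. Their summed level was 39690 to 44989 CPM in Cirrhosis-PTH livers, 24018 to 44688 CPM in Cirrhosis livers and 40455 to 56721 CPM in Control livers, and none of them was at 0. Their part in the Vegfa values was not tested. In whole liver RNA, fewer cells of a type and less RNA per cell cannot be told apart, and this holds for every gene below.

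Vegfc (ENSMUSG00000031520, chromosome 8, 54077606 to 54187096, plus strand), which encodes the VEGFR3 ligand, had 1.79 to 3.08 CPM in Cirrhosis-PTH livers, with a median of 2.29. Cirrhosis livers had 3.44 to 4.66 CPM, with a median of 3.71, and Control livers had 1.46 to 2.29 CPM, with a median of 1.76. Every Cirrhosis liver lay above every liver of the other groups, and those 2 groups overlapped. Vegfc fell by 0.73 ± 0.15 in Cirrhosis-PTH livers relative to Cirrhosis livers (adjusted p = 0.00064) and rose by 1.14 ± 0.16 in Cirrhosis livers relative to Control livers (adjusted p = 3.1e-06). Cirrhosis-PTH livers differed from Control livers by 0.41 ± 0.16 (adjusted p = 0.11), and the call passed only when Cirrhosis-PTH replicate 4 was left out.

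Pgf (ENSMUSG00000004791, chromosome 12, 85166635 to 85177790, minus strand), which encodes the VEGFR1 ligand placental growth factor, was close to absent outside the Cirrhosis group. Cirrhosis-PTH livers held 0 to 5 counts each and 16 in all, with none in replicates 1 and 3. Cirrhosis livers held 17 to 516 counts each and 1040 in all, or 0.156, 0.303, 0.869, 1.13, 2.37 and 4.68 CPM from the lowest to the highest liver. Every Control liver had 0 counts. All 6 Cirrhosis livers lay above every other liver, and within that group the spread was the widest of all members and groups, with a coefficient of variation of 108%. Pgf fell in Cirrhosis-PTH livers relative to Cirrhosis livers (log2 -5.65 ± 0.94, adjusted p = 0.00025), and the pooled level was 51.1-fold higher in Cirrhosis livers than in Cirrhosis-PTH livers. Against a floor of 3 counts over the Control group, Pgf was at least 194-fold higher in Cirrhosis livers than in Control livers (adjusted p = 5.7e-05). Against the same floor it was at least 3.79-fold higher in Cirrhosis-PTH livers than in Control livers, and that difference did not pass (adjusted p = 0.24). These bounds cover counting error only. Cirrhosis replicate 5 held 49.6% of the group's Pgf counts; without it the bound over Control was 117-fold, the ratio to Cirrhosis-PTH was 30.8-fold and the fall in Cirrhosis-PTH was -4.94, still called.

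Markers of myofibroblasts, and part of those of macrophages and cholangiocytes, moved in the same directions as Vegfc and Pgf. So did most called genes of the capillary and large-vessel, quiescent stellate, and smooth muscle and pericyte lists, whose counts are given below. All 8 myofibroblast genes fell in Cirrhosis-PTH livers relative to Cirrhosis livers, with a median of -1.85, and all 8 rose in Cirrhosis livers relative to Control livers, with a median of 3.21. Their summed level was 111 to 408 CPM in Cirrhosis-PTH livers, 547 to 890 CPM in Cirrhosis livers and 37.7 to 146 CPM in Control livers. Of the 10 macrophage genes, 6 fell and none rose in Cirrhosis-PTH against Cirrhosis, and 7 rose and 2 fell, Clec4f (-0.69) and Timd4 (-1.48), both genes of resident Kupffer cells, in Cirrhosis against Control. Clec4f and Timd4 were singled out after their values were seen. Vsig4, a further Kupffer cell gene of the list, did not fall there (0.22, adjusted p = 0.51). The summed level of the 10 macrophage genes was 229 to 302 CPM in Cirrhosis-PTH livers, 424 to 720 CPM in Cirrhosis livers and 167 to 274 CPM in Control livers. Of the 6 cholangiocyte genes, markers of the bile duct lining, 2 fell and none rose in Cirrhosis-PTH against Cirrhosis, and all 6 rose in Cirrhosis against Control, with a median of 2.04. They summed to 26.6 to 82.0 CPM in Cirrhosis-PTH livers, 83.1 to 203 CPM in Cirrhosis livers and 17.9 to 42.0 CPM in Control livers. Spp1 and Sox9, the 2 that fell, made up most of that sum, with means of 109 and 22.8 CPM in Cirrhosis livers. The sum therefore mainly follows these 2 genes, which were singled out after their values were seen. Krt19, Krt7, Epcam and Cftr were not called in Cirrhosis-PTH against Cirrhosis. Within the Cirrhosis group, the cholangiocyte sum was highest in replicates 5 and 1, the livers with the most Pgf, at 203 and 172 CPM, and lowest in replicate 3, the liver with the least, at 83.1 CPM. The myofibroblast sum was lowest in replicates 5 and 1, at 547 and 550 CPM, and highest in replicate 3, at 890 CPM. The hepatocyte sum was likewise lowest in replicates 5 and 1, at 24018 and 26961 CPM, and highest in replicate 3, at 44688 CPM. These sums were set beside Pgf after their values were seen. No gene of the myofibroblast, macrophage and cholangiocyte lists had 0 counts over all libraries. The part of any of the cell types named here in the Vegfc and Pgf values was not tested.

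Kdr (ENSMUSG00000062960, chromosome 5, 75932827 to 75978458, minus strand) encodes VEGFR2, the receptor through which VEGF-A drives endothelial growth and survival. It had 65.2 to 77.1 CPM in Cirrhosis-PTH livers, with a median of 75.3. Cirrhosis livers had 42.0 to 51.7 CPM, with a median of 47.0, and Control livers had 64.7 to 74.5 CPM, with a median of 70.1. On these normalised levels every Cirrhosis liver lay below every liver of the other groups, which overlapped. The separation from Control rests on the normalisation. Over counts outside ribosomal RNA loci alone, Cirrhosis and Control livers overlapped. Cirrhosis replicate 3 had 5648 Kdr counts in 53.59 M, for example, and Control replicate 7 had 2937 in 30.98 M. Kdr rose by 0.64 ± 0.07 in Cirrhosis-PTH livers relative to Cirrhosis livers (adjusted p = 2.1e-07), the smallest p of the members in that comparison. It fell by 0.58 ± 0.07 in Cirrhosis livers relative to Control livers (adjusted p = 3.8e-07). Cirrhosis-PTH differed from Control by 0.06 ± 0.07 (adjusted p = 0.64), with a 95% interval from -0.08 to 0.20.

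Flt1 (ENSMUSG00000029648, chromosome 5, 147561604 to 147726011, minus strand), the VEGFR1 gene, had 13.5 to 16.6 CPM in Cirrhosis-PTH livers, with a median of 15.3, 12.8 to 18.4 CPM in Cirrhosis livers, with a median of 17.0, and 14.1 to 18.8 CPM in Control livers, with a median of 17.4. The groups overlapped. The difference was -0.11 between Cirrhosis-PTH and Cirrhosis (95% interval -0.29 to 0.07), -0.06 between Cirrhosis and Control (-0.24 to 0.13) and -0.17 between Cirrhosis-PTH and Control (-0.35 to 0.02). Counts per gene do not separate the membrane receptor from its soluble form.

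Flt4 (ENSMUSG00000020357, chromosome 11, 49609263 to 49652739, plus strand), the VEGFR3 gene, had 29.3 to 36.2 CPM in Cirrhosis-PTH livers, with a median of 33.7, 30.9 to 34.6 CPM in Cirrhosis livers, with a median of 32.8, and 28.2 to 39.2 CPM in Control livers, with a median of 32.9. On these normalised levels the groups overlapped and no direction held. The difference between Cirrhosis-PTH and Cirrhosis was 0.02 (95% interval -0.14 to 0.18), and -0.01 with DESeq2's size factors in the same test. Flt4 differed by -0.04 between Cirrhosis and Control (-0.21 to 0.12) and by -0.02 between Cirrhosis-PTH and Control (-0.19 to 0.14). These values rest on the normalisation. Over counts outside ribosomal RNA loci alone, every Cirrhosis liver lay above every other liver. The nearest were Cirrhosis replicate 6, with 3483 Flt4 counts in 52.49 M, and Control replicate 1, with 2745 in 42.42 M. Flt4 passed in no comparison with all libraries in the fit.

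Within each library the balance of the VEGF receptor transcripts was described by count ratios, which do not depend on the scaling of the library. The Flt1/Kdr ratio had a median of 0.210 in Cirrhosis-PTH livers, 0.380 in Cirrhosis livers and 0.252 in Control livers. It ran from 0.181 to 0.231 in Cirrhosis-PTH livers, from 0.247 to 0.405 in Cirrhosis livers and from 0.189 to 0.275 in Control livers, so Cirrhosis-PTH and Cirrhosis did not overlap, and Cirrhosis and Control did. The Flt4/Kdr ratio had a median of 0.446 in Cirrhosis-PTH livers, 0.724 in Cirrhosis livers and 0.473 in Control livers. All 6 Cirrhosis livers, at 0.632 to 0.747, lay above the Cirrhosis-PTH livers, at 0.416 to 0.517, and the Control livers, at 0.381 to 0.594. The ratios were given no test of their own.

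The summed level of 12 pan-endothelial genes was 149 to 167 CPM in Cirrhosis-PTH livers, 159 to 187 CPM in Cirrhosis livers and 142 to 184 CPM in Control livers, with overlap between all groups. Of the 12, 4 fell and none rose in Cirrhosis-PTH livers relative to Cirrhosis livers, and 4 rose and none fell in Cirrhosis livers relative to Control livers, so those that passed went against the direction of Kdr. None of the 12 passed in Cirrhosis-PTH against Control in edgeR's test, with 1 at an unadjusted p under 0.05. As a share of that sum, Kdr stood at 46.2 ± 3.91% in Cirrhosis-PTH livers, 27.9 ± 2.70% in Cirrhosis livers and 45.5 ± 5.50% in Control livers (SD, n = 6 each). The share ran from 39.1 to 49.9% in Cirrhosis-PTH livers, from 25.1 to 30.8% in Cirrhosis livers and from 35.8 to 52.6% in Control livers, so that Cirrhosis overlapped neither of the other groups. The share of Flt4 was 20.9 ± 1.27% in Cirrhosis-PTH livers, 19.4 ± 0.996% in Cirrhosis livers and 21.8 ± 2.70% in Control livers.

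**Figure D2:**
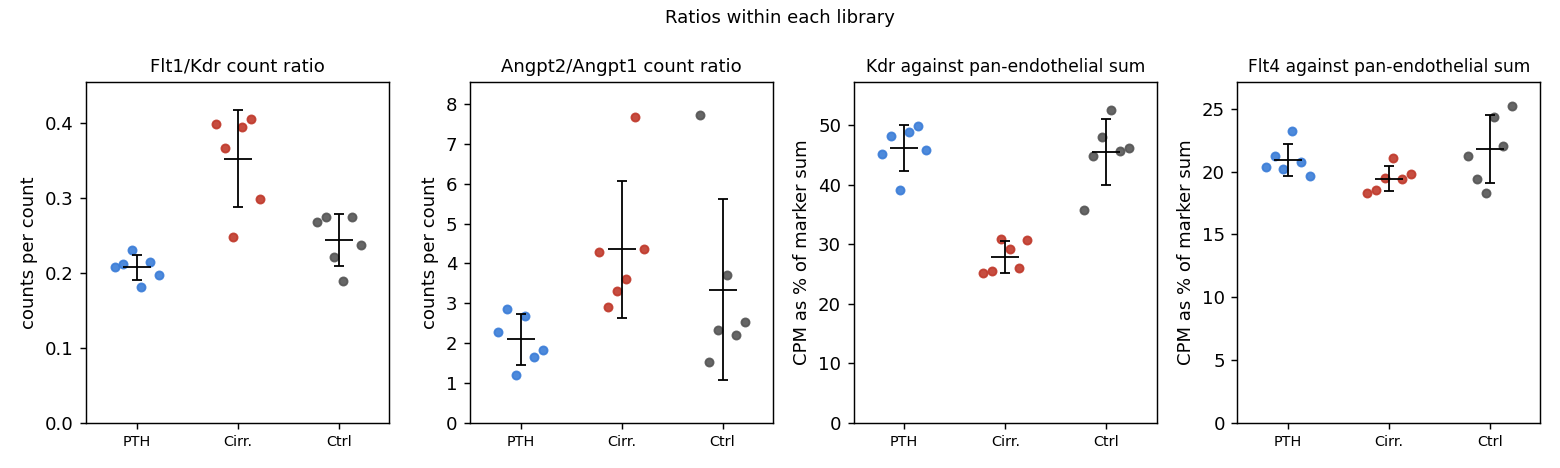
Ratios in each of the 18 livers by group (PTH, Cirrhosis-PTH; Cirr., Cirrhosis; Ctrl, Control): from left to right the Flt1/Kdr count ratio, the Angpt2/Angpt1 count ratio, and the Kdr and Flt4 levels as a percentage of the summed level of 12 pan-endothelial genes. Points are libraries, bars the mean and whiskers 1 SD; Kdr as a share of the sum was 25.1 to 30.8% in Cirrhosis livers, below every other liver.

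Within the endothelial lists the sinusoidal and the larger-vessel genes gave different counts. Of the 11 sinusoidal genes, 2 rose and 1 fell in Cirrhosis-PTH livers relative to Cirrhosis livers, 2 rose and 2 fell in Cirrhosis livers relative to Control livers, and none passed in Cirrhosis-PTH against Control (3 at an unadjusted p under 0.05). Their summed level was 401 to 449 CPM in Cirrhosis-PTH livers, 388 to 484 CPM in Cirrhosis livers and 395 to 447 CPM in Control livers. Of the 9 capillary and large-vessel genes, 5 fell in Cirrhosis-PTH livers relative to Cirrhosis livers, with a median of -0.66, and 8 rose in Cirrhosis livers relative to Control livers, with a median of 1.33. Their summed level was 42.5 to 55.7 CPM in Cirrhosis-PTH livers, 69.0 to 93.2 CPM in Cirrhosis livers and 31.2 to 48.4 CPM in Control livers, so that Cirrhosis lay above both other groups without overlap. Relative to Control, 2 of these 9 rose in Cirrhosis-PTH livers, Cd34, a sialomucin of capillary endothelium (1.76, adjusted p = 0.00082), and Vwf, the von Willebrand factor gene of larger vessels (0.62, adjusted p = 0.026). These 2 genes were singled out after their values were seen. No difference between the lists was tested.

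**Figure D3:**
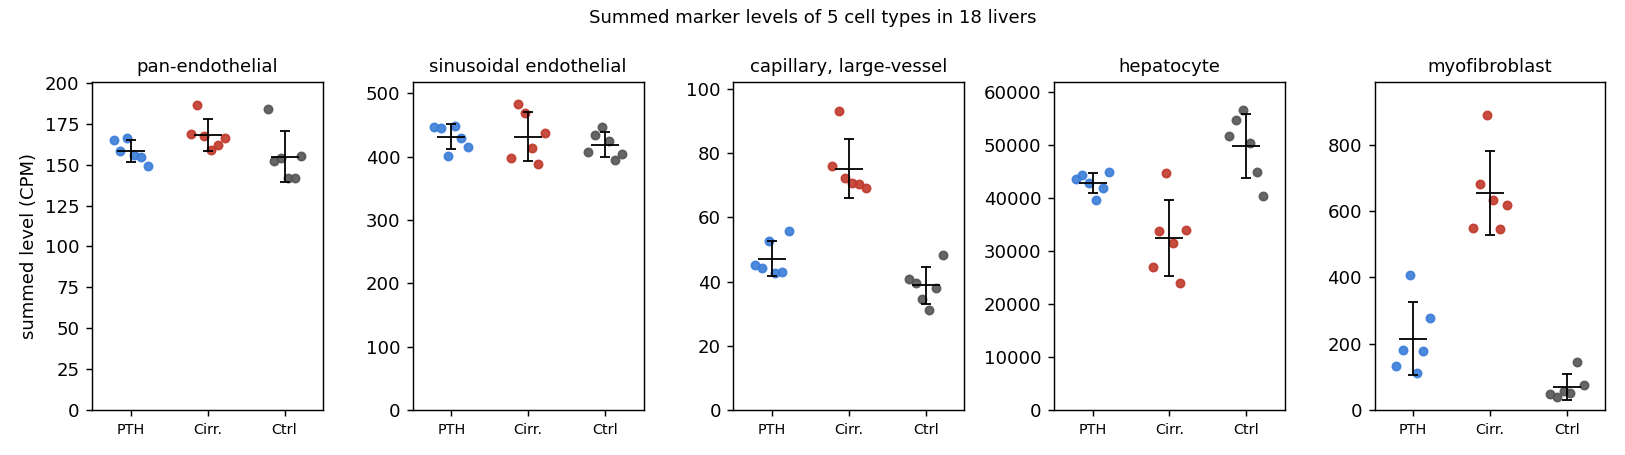
Summed level (CPM, vertical axis) of the marker genes of 5 cell types in each of the 18 livers by group (PTH, Cirrhosis-PTH; Cirr., Cirrhosis; Ctrl, Control); points are libraries, bars the mean and whiskers 1 SD over 6 livers. The capillary and large-vessel sum was 69.0 to 93.2 CPM in Cirrhosis livers and at most 55.7 CPM in the others, while the pan-endothelial and sinusoidal sums overlapped between all groups.

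Angpt2 (ENSMUSG00000031465, chromosome 8, 18690263 to 18741562, minus strand), the gene of the context-dependent Tie2 ligand stored in activated endothelium, had 1.74 to 2.53 CPM in Cirrhosis-PTH livers, with a median of 2.15. Cirrhosis livers had 2.85 to 7.09 CPM, with a median of 3.30, and Control livers had 1.38 to 3.64 CPM, with a median of 1.67. Every Cirrhosis liver lay above every Cirrhosis-PTH liver, and 1 Control liver, replicate 1, lay among the Cirrhosis livers. Angpt2 fell by 0.92 ± 0.23 in Cirrhosis-PTH livers relative to Cirrhosis livers (adjusted p = 0.0035) and rose by 0.99 ± 0.24 in Cirrhosis livers relative to Control livers (adjusted p = 0.0014). Cirrhosis-PTH differed from Control by 0.08 ± 0.24 (adjusted p = 0.89), with a 95% interval from -0.42 to 0.57. The highest Cirrhosis liver was replicate 5, as for Pgf, and without it the changes were -0.68 and 0.75, both called.

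Angpt2 lies inside Mcph1, a protein-coding gene on the opposite strand, and whether the counting used strand is not stated, so reads of the 2 genes cannot be told apart with certainty. Mcph1 changed by -0.38 in Cirrhosis-PTH livers relative to Cirrhosis livers (adjusted p = 0.035) and by 0.61 in Cirrhosis livers relative to Control livers (adjusted p = 0.0012), the same directions as Angpt2. Mcph1 is given because of this overlap. The capillary and large-vessel genes also took these directions, and the part of either in the Angpt2 values was not tested.

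Angpt1 (ENSMUSG00000022309, chromosome 15, 42424723 to 42676977, minus strand), the gene of the Tie2 agonist made by stellate cells and pericytes, had 0.610 to 1.83 CPM in Cirrhosis-PTH livers, with a median of 1.05. Cirrhosis livers had 0.727 to 1.01 CPM, with a median of 0.955, and Control livers had 0.471 to 0.908 CPM, with a median of 0.688. The groups overlapped, and the Cirrhosis-PTH livers spread most, with a coefficient of variation of 40.4%, against 11.0% in Cirrhosis livers and 23.1% in Control livers. The differences were 0.28 ± 0.24 between Cirrhosis-PTH and Cirrhosis (adjusted p = 0.39), 0.46 ± 0.25 between Cirrhosis and Control (adjusted p = 0.13) and 0.74 ± 0.25 between Cirrhosis-PTH and Control (adjusted p = 0.067). The last passed without Cirrhosis-PTH replicate 2, without Cirrhosis-PTH replicate 4 and under DESeq2 (adjusted p = 0.034). The antisense gene Gm17473 overlaps Angpt1 and had 78 counts over all libraries.

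The Angpt2/Angpt1 count ratio had a median of 2.06 in Cirrhosis-PTH livers, 3.94 in Cirrhosis livers and 2.44 in Control livers. It ran from 1.21 to 2.86 in Cirrhosis-PTH livers and from 2.91 to 7.67 in Cirrhosis livers, so that these groups did not overlap, though the nearest livers were close. In Control livers it ran from 1.53 to 7.73 and overlapped both other groups; the highest value was that of replicate 1, and the next was 3.72.

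Tek (ENSMUSG00000006386, chromosome 4, 94739289 to 94874976, plus strand), which encodes the angiopoietin receptor Tie2, had 12.8 to 14.6 CPM in Cirrhosis-PTH livers, with a median of 13.7, 12.9 to 16.6 CPM in Cirrhosis livers, with a median of 14.4, and 11.8 to 14.9 CPM in Control livers, with a median of 14.5. The groups overlapped. The 95% intervals of the log2 difference were -0.28 to 0.05 between Cirrhosis-PTH and Cirrhosis, -0.06 to 0.27 between Cirrhosis and Control and -0.18 to 0.16 between Cirrhosis-PTH and Control.

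Tie1 (ENSMUSG00000033191, chromosome 4, 118471191 to 118490061, minus strand), the orphan partner of Tie2, had 9.09 to 13.5 CPM in Cirrhosis-PTH livers, with a median of 10.4, 9.91 to 14.6 CPM in Cirrhosis livers, with a median of 12.0, and 7.60 to 12.8 CPM in Control livers, with a median of 10.5. The groups overlapped. Tie1 differed by -0.16 ± 0.13 between Cirrhosis-PTH and Cirrhosis (adjusted p = 0.34), by 0.25 ± 0.13 between Cirrhosis and Control (adjusted p = 0.10) and by 0.09 ± 0.13 between Cirrhosis-PTH and Control (adjusted p = 0.73). Without Control replicate 1, which had the highest pan-endothelial sum of its group, the second difference was 0.33 and passed (adjusted p = 0.037). The Tie1/Tek count ratio overlapped between all groups, with medians of 0.765 in Cirrhosis-PTH livers, 0.814 in Cirrhosis livers and 0.723 in Control livers.

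**Figure D4:**
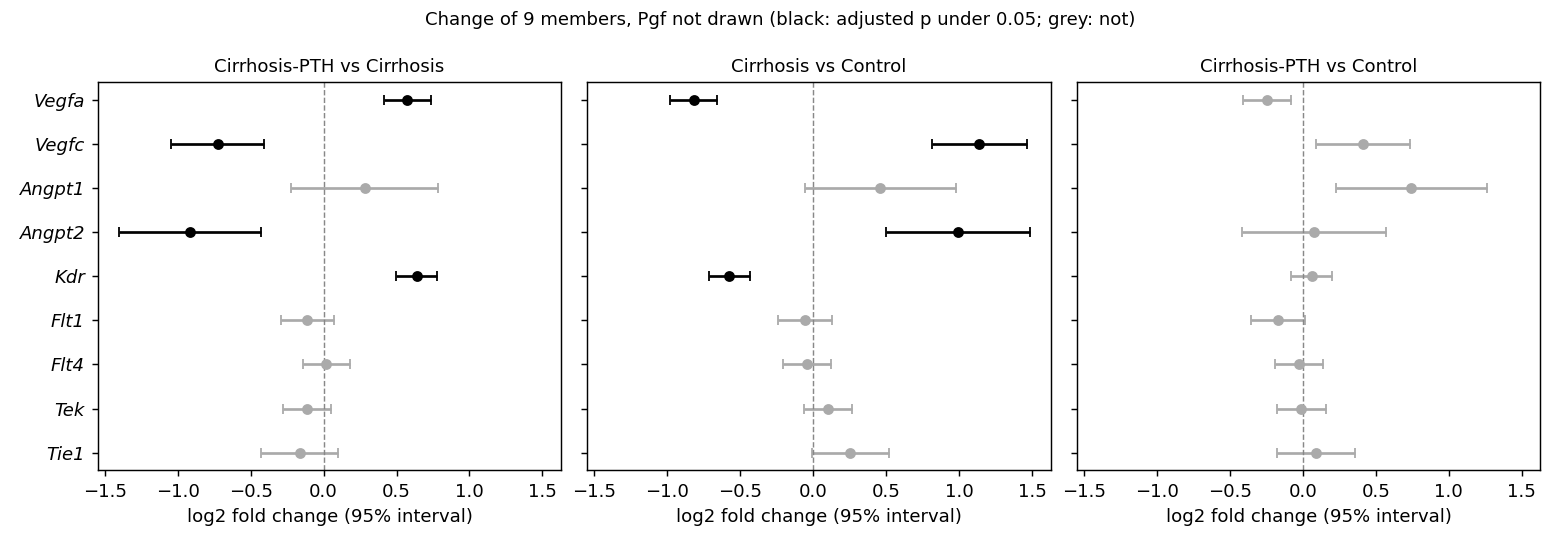
Log2 fold change (horizontal axis) of 9 genes in the 3 comparisons, with 95% intervals; black points passed the adjusted p threshold of 0.05 and grey points did not. Vegfa and Kdr lie above 0 and Vegfc and Angpt2 below 0 in Cirrhosis-PTH against Cirrhosis, the receptors Flt1, Flt4, Tek and Tie1 are grey throughout, and Pgf is not drawn because its Control counts were all 0.

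The other ligands, the co-receptors and the phosphatase of the Tie2 and VEGFR2 complexes formed a list of 6 further genes, all tested. In Cirrhosis-PTH livers relative to Cirrhosis livers 1 rose and 2 fell, with a median of -0.24. In Cirrhosis livers relative to Control livers 1 rose and 2 fell, with a median of 0.07, and in Cirrhosis-PTH livers relative to Control livers 1 rose and 1 fell, with a median of -0.07. Nrp1, neuropilin-1, a co-receptor that presents VEGF-A to VEGFR2, had 57.8 ± 10.2 CPM in Cirrhosis-PTH livers, 61.6 ± 9.46 CPM in Cirrhosis livers and 88.5 ± 11.5 CPM in Control livers. It fell relative to Control in Cirrhosis-PTH livers (-0.61, adjusted p = 0.0024) and in Cirrhosis livers (-0.52, adjusted p = 0.0010), and differed by -0.09 between Cirrhosis-PTH and Cirrhosis (adjusted p = 0.59). Nrp2, the neuropilin that pairs with VEGFR3, had 21.1, 27.7 and 23.9 CPM in Cirrhosis-PTH, Cirrhosis and Control livers and fell by 0.39 in Cirrhosis-PTH livers relative to Cirrhosis livers (adjusted p = 0.0084). Ptprb, the endothelial phosphatase VE-PTP that restrains Tie2, had 176, 141 and 172 CPM in those groups. It rose by 0.33 in Cirrhosis-PTH livers relative to Cirrhosis livers (adjusted p = 0.00087) and fell by 0.29 in Cirrhosis livers relative to Control livers (adjusted p = 0.0019), the directions of Kdr.

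Vegfb, a further VEGFR1 ligand, had 4.90 CPM in Cirrhosis-PTH livers, 3.83 CPM in Cirrhosis livers and 4.02 CPM in Control livers and passed in no comparison (smallest adjusted p = 0.060). Vegfd, the ligand closest to Vegfc, had 1.11, 1.66 and 1.32 CPM in the same groups and fell by 0.57 in Cirrhosis-PTH livers relative to Cirrhosis livers (adjusted p = 0.033). Angpt4, a low-abundance Tie2 ligand, had 0.225, 0.303 and 0.0277 CPM in Cirrhosis-PTH, Cirrhosis and Control livers. It rose relative to Control by 2.70 in Cirrhosis-PTH livers (adjusted p = 0.035) and by 3.11 in Cirrhosis livers (adjusted p = 0.0022), and differed by -0.41 between Cirrhosis-PTH and Cirrhosis (adjusted p = 0.67).

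VEGF-C is cut from its precursor by a set of proteins whose 6 genes did not move as a block. In Cirrhosis-PTH livers relative to Cirrhosis livers 3 rose and 1 fell, with a median of 0.28, and in Cirrhosis livers relative to Control livers 2 rose and 3 fell, with a median of 0.04. None passed in Cirrhosis-PTH against Control in edgeR's test, with 2 at an unadjusted p under 0.05. The proprotein convertase genes Furin, Pcsk5 and Pcsk7 rose in Cirrhosis-PTH livers relative to Cirrhosis livers by 0.35, 0.51 and 0.33 (adjusted p = 0.00022, 0.00082 and 0.00089). They fell in Cirrhosis livers relative to Control livers by 0.48, 0.36 and 0.37 (adjusted p = 3.4e-06, 0.0094 and 0.00021). Furin had 172 CPM in Cirrhosis-PTH livers, 135 CPM in Cirrhosis livers and 188 CPM in Control livers. The ADAMTS genes took the direction of Vegfc. Adamts3, the VEGF-C activating protease, had 0.615, 1.27 and 0.409 CPM in Cirrhosis-PTH, Cirrhosis and Control livers and rose by 1.69 in Cirrhosis relative to Control (adjusted p = 0.0081), with -1.04 in Cirrhosis-PTH against Cirrhosis (adjusted p = 0.092). Adamts14 had 2.23, 3.78 and 1.3 CPM, rose by 1.55 in Cirrhosis relative to Control (adjusted p = 4.2e-05) and fell by 0.76 in Cirrhosis-PTH relative to Cirrhosis (adjusted p = 0.021). Ccbe1, the scaffold on which Adamts3 acts, had 8.80, 7.50 and 5.50 CPM and passed in no comparison (smallest adjusted p = 0.064).

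Downstream of the VEGF receptors, 22 signalling genes were tested. In Cirrhosis-PTH livers relative to Cirrhosis livers 2 rose and 12 fell, with a median of -0.26. In Cirrhosis livers relative to Control livers 12 rose and 2 fell, with a median of 0.30, and in Cirrhosis-PTH against Control 2 rose and none fell, with a median of 0.03. Plcg1, the phospholipase that binds activated VEGFR2, followed Kdr, with 53.0 ± 5.45 CPM in Cirrhosis-PTH livers, 33.4 ± 2.81 CPM in Cirrhosis livers and 56.2 ± 5.96 CPM in Control livers. It rose by 0.67 in Cirrhosis-PTH relative to Cirrhosis (adjusted p = 1.3e-06) and fell by 0.75 in Cirrhosis relative to Control (adjusted p = 1.4e-07). Rcan1, a calcineurin inhibitor that VEGF induces in endothelial cells, had 7.77, 18.2 and 6.16 CPM in Cirrhosis-PTH, Cirrhosis and Control livers. It fell by 1.23 in Cirrhosis-PTH relative to Cirrhosis (adjusted p = 1.5e-06) and rose by 1.56 in Cirrhosis relative to Control (adjusted p = 3.9e-08). Src, a kinase of VEGFR2 signalling that many cells carry, had 4.55, 16.4 and 2.33 CPM. It fell by 1.85 in Cirrhosis-PTH relative to Cirrhosis (adjusted p = 1.9e-05), and it was higher than in Control by 0.99 in Cirrhosis-PTH livers (adjusted p = 0.029) and by 2.84 in Cirrhosis livers (adjusted p = 1.3e-07).

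All 8 Tie2 signalling genes were tested. In Cirrhosis-PTH livers relative to Cirrhosis livers 3 rose and 4 fell, with a median of -0.23, and in Cirrhosis livers relative to Control livers 5 rose and 3 fell, with a median of 0.26. None passed in Cirrhosis-PTH against Control in edgeR's test, with 1 at an unadjusted p under 0.05. Foxo1, the transcription factor that Tie2 signalling keeps out of the nucleus and that is also active in hepatocytes, had 36.8 CPM in Cirrhosis-PTH livers, 21.6 CPM in Cirrhosis livers and 39.6 CPM in Control livers. It rose by 0.77 in Cirrhosis-PTH relative to Cirrhosis (adjusted p = 7.1e-06) and fell by 0.88 in Cirrhosis relative to Control (adjusted p = 8.3e-07). Grb7, an adaptor that binds Tie2, rose by 0.92 (adjusted p = 2.1e-07) and fell by 1.09 (adjusted p = 1.0e-08) in the same comparisons. Dok2, an adaptor of Tie2 that blood cells also carry, fell by 1.67 (adjusted p = 2.3e-06) and rose by 1.55 (adjusted p = 3.8e-06).

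Genes of endothelial tip cells, the leading cells of a vessel sprout, gave calls in 1 direction. Of the 10 tested, 4 fell and none rose in Cirrhosis-PTH livers relative to Cirrhosis livers, with a median of -0.59, and 5 rose and none fell in Cirrhosis livers relative to Control livers, with a median of 1.22. Of all genes tested, 38.6% and 50.5% were called in those comparisons, both directions together, so the number of calls by itself is no result about tip cells. In Cirrhosis-PTH livers relative to Control livers 2 rose, with a median of 0.40, where 8.82% of all genes were called. The listed genes Esm1, Dll4 and Apln passed in no comparison in edgeR's test, and they are named after their values were seen. Cxcr4, a chemokine receptor that leukocytes also carry, had 1.81 CPM in Cirrhosis-PTH livers, 4.79 CPM in Cirrhosis livers and 0.651 CPM in Control livers. Unc5b, a netrin receptor, had 11.1, 22.8 and 4.56 CPM in those groups. Both passed in all 3 comparisons: Cxcr4 fell by 1.40 and Unc5b by 1.04 in Cirrhosis-PTH relative to Cirrhosis (adjusted p = 4.3e-06 and 1.9e-05), and relative to Control they were higher by 1.49 and 1.28 in Cirrhosis-PTH livers (adjusted p = 8.0e-05 and 4.4e-05). Plaur, the urokinase receptor, also of myeloid cells, had 0.899 CPM in Cirrhosis-PTH livers, 9.42 CPM in Cirrhosis livers and 0.684 CPM in Control livers, and fell by 3.38 in Cirrhosis-PTH relative to Cirrhosis (adjusted p = 5.1e-07). The macrophage marker sums given above moved in the same directions, and their part in these values was not tested.

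Endothelial transcription factor genes were called in both directions. Of the 17 tested, 1 rose and 5 fell in Cirrhosis-PTH relative to Cirrhosis, with a median of -0.21, where 38.6% of all genes were called. In Cirrhosis relative to Control 5 rose and 2 fell, with a median of 0.23, where 50.5% of all genes were called. In Cirrhosis-PTH relative to Control 1 rose and 1 fell, with a median of 0.11, where 8.82% of all genes were called. Klf4, induced in endothelium by flow and also a gene of other cells, had 2.52, 7.73 and 1.92 CPM in Cirrhosis-PTH, Cirrhosis and Control livers, falling by 1.61 in Cirrhosis-PTH relative to Cirrhosis (adjusted p = 1.0e-07) and rising by 2.01 in Cirrhosis relative to Control (adjusted p = 3.1e-09). Ets1 had 33.1, 46.0 and 30.6 CPM, falling by 0.48 (adjusted p = 1.8e-05) and rising by 0.59 (adjusted p = 7.6e-07) in those comparisons.

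VEGF-A is a known target of the hypoxia-inducible factors, and the genes of the factors and their regulators were called in both directions. Of 9 genes tested, 2 rose and 2 fell in Cirrhosis-PTH relative to Cirrhosis, with a median of 0.03, 2 rose and 3 fell in Cirrhosis relative to Control, with a median of -0.05, and none passed in Cirrhosis-PTH against Control, with 0 at an unadjusted p under 0.05 as well. Hif1a, the inducible subunit, had 38.1, 45.5 and 37.5 CPM in Cirrhosis-PTH, Cirrhosis and Control livers and fell by 0.26 in Cirrhosis-PTH relative to Cirrhosis (adjusted p = 0.039). Egln2, a prolyl hydroxylase that marks these factors for destruction, had 32.6, 23.8 and 31.2 CPM and rose by 0.45 in Cirrhosis-PTH relative to Cirrhosis (adjusted p = 5.8e-06). Vhl, the ligase subunit that completes the step, had 5.84, 7.43 and 4.95 CPM and rose by 0.59 in Cirrhosis relative to Control (adjusted p = 0.00094).

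Other targets of these factors were called in both directions. Of 15 hypoxia response genes tested, 3 rose and 6 fell in Cirrhosis-PTH relative to Cirrhosis, with a median of -0.40, and 6 rose and 3 fell in Cirrhosis relative to Control, with a median of 0.46. In Cirrhosis-PTH against Control 1 rose and none fell, with a median of 0.05. Bnip3, a mitophagy receptor, took the directions of Vegfa: it had 129 CPM in Cirrhosis-PTH livers, 55.8 CPM in Cirrhosis livers and 118 CPM in Control livers, rising by 1.21 in Cirrhosis-PTH relative to Cirrhosis (adjusted p = 6.3e-08) and falling by 1.08 in Cirrhosis relative to Control (adjusted p = 1.1e-07). Hk2, hexokinase 2, took the opposite ones, with 2.94, 9.39 and 1.85 CPM in those groups, falling by 1.67 (adjusted p = 4.0e-07) and rising by 2.36 (adjusted p = 3.4e-09).

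Inhibitors of vessel growth were also called in both directions. Of 9 genes tested, 3 rose and 4 fell in Cirrhosis-PTH relative to Cirrhosis, with a median of -0.65, 5 rose and 3 fell in Cirrhosis relative to Control, with a median of 1.86, and 3 rose in Cirrhosis-PTH relative to Control, with a median of -0.06. Thbs1, thrombospondin-1, which blocks VEGF signalling and activates TGF-β, had 9.38 ± 3.13 CPM in Cirrhosis-PTH livers, 96.4 ± 48.3 CPM in Cirrhosis livers and 2.72 ± 1.05 CPM in Control livers. It fell by 3.36 in Cirrhosis-PTH relative to Cirrhosis (adjusted p = 3.8e-06) and was higher than in Control by 1.81 in Cirrhosis-PTH livers (adjusted p = 0.0077) and by 5.17 in Cirrhosis livers (adjusted p = 5.9e-08). Sparc, a matrix protein of stromal cells, had 51.3, 120 and 32.0 CPM in Cirrhosis-PTH, Cirrhosis and Control livers and fell by 1.22 in Cirrhosis-PTH relative to Cirrhosis (adjusted p = 9.1e-07). Col18a1, the collagen gene from which endostatin is cut and which hepatocytes express, had 750, 418 and 781 CPM and rose by 0.84 in Cirrhosis-PTH relative to Cirrhosis (adjusted p = 2.0e-06).

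The members' own deviations from their group means over the 18 libraries showed little common pattern, given here as a description. The closest pair was Tek and Tie1, with r = 0.71, and Pgf and Angpt2 had r = 0.52, while Vegfc and Kdr had r = -0.59. Among 11855 other genes with a mean level high enough to compare, the 3 whose deviations were most like those of Vegfa were Akr1c14, Dclk3 and Hlf (r = 0.88, 0.84 and 0.83). Commd3 and Epb41 were among the 3 most like Kdr (r = 0.88 each), and those most like Vegfc were Nbeal2, Hk1 and Slc25a4 (r = 0.87, 0.86 and 0.84). Pgf was most like Txnrd1, Ddx21 and Cyr61 (r = 0.93, 0.92 and 0.90), Angpt2 like Tet3, Zfyve27 and Cars (r = 0.84, 0.83 and 0.82), and Angpt1 like Itgb8, Lpar1 and Purg (r = 0.84, 0.83 and 0.81). Among the other receptors, Flt1 was most like Zc3h13, Akap12 and Ino80b (r = 0.75, 0.71 and 0.71) and Flt4 like Pcdh17, Gpr4 and Pithd1 (r = 0.84, 0.83 and 0.80). Tek was most like Txndc11, Rab3il1 and Adap1 (r = 0.80, 0.79 and 0.78), and Tie1 like Serpina3m, Sec16b and Arf5 (r = 0.89, 0.86 and 0.86). The highest of so many correlations over 18 libraries are large for any gene, and the points share library scaling and depth. The r values of Pgf rest mostly on the 6 Cirrhosis livers. Pgf had 0 counts in each Control liver and 0 to 5 in each Cirrhosis-PTH liver.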

How the data were processed

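The deposited file holds whole-number counts per gene, 1 column per liver library. Per the submitters' processing notes, the authors used the mouse build GRCm38 and Trim Galore, cutadapt 4.2, Bowtie2, Bowtie 1.3.1, StringTie 2.1.5 and HISAT2 2.2.1, with no role given for any; the annotation, the counting and its strand are not given in the sources used here. Per the labels, ribosomal RNA was removed before library preparation.

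A single edgeR 4.0.16 model (R 4.3.3) was fitted to all 18 libraries with the 3 groups as its terms. Genes were kept by filterByExpr, normalised with TMM factors (trimmed mean of M values) and tested two-sided with the robust quasi-likelihood test. P-values were adjusted by Benjamini-Hochberg over 21914 genes, with 0.05 as the threshold. CPM is a count over the TMM-scaled library size; SE and 95% intervals come from that test. The steps were tested on simulated data with 200 genes changed in the Cirrhosis group. That is far fewer than were called in the Cirrhosis comparisons, so the simulation does not test the scaling. Alternatives were other scalings and filters, DESeq2 1.42.0, limma-voom (limma 3.58.1), a replicate block and leaving out libraries.

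The members and all gene lists were chosen with earlier results of these data known. The genes named are all 10 members, the 3 genes most like each in deviation from group means (1 of them is not reported here), every gene of the partner and VEGF-C processing lists, and of each other pathway list the 2 smallest p in each of Cirrhosis against Control and Cirrhosis-PTH against Cirrhosis, with genes that overlap a member; any others named were chosen after their values were seen. Exon lengths and overlaps are from GENCODE vM21. Of the listed genes, Aplnr and Gp1bb had too few counts to be tested and Ca9 was not analysed here.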

Additional observations from a re-analysis of the deposited data

Results flagged for a closer look

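Among 35 groups of 6 values checked for a library far from the others, 5 had one, where chance gives about 1 in 20 groups. Angpt2 stood at 7.0944 CPM in Cirrhosis replicate 5, the next liver of that group being at 4.33 CPM, and the Angpt2/Angpt1 count ratio of the same liver was 7.667, the next being 4.36. Angpt2 stood at 3.6433 CPM in Control replicate 1, against 1.9977 CPM in the next, and the ratio there was 7.727, against 3.72. The Angpt2 values and their ratios share the same counts, so these 4 are not independent. Without Cirrhosis replicate 5 the Angpt2 change was -0.68 in Cirrhosis-PTH against Cirrhosis and 0.75 in Cirrhosis against Control. Without Control replicate 1 Cirrhosis against Control gave 1.25. Angpt1 was lowest in Cirrhosis replicate 6, at 0.72701 CPM, against 0.925 CPM in the next liver of a group that otherwise spread little.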

How the results depend on the processing

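Of 836 values of single members under the alternatives, 794 kept direction and side of the threshold, 0 lost a call, 11 gained one and 31 changed sign. In Cirrhosis-PTH against Cirrhosis the count of members called was 5 under each alternative except the stricter filter, with 4, where Pgf was not tested. In Cirrhosis against Control it was likewise 4 under the stricter filter, 6 without Control replicate 1 and 5 otherwise. In Cirrhosis-PTH against Control it was 0, but 1 with DESeq2's size factors in edgeR, 1 with the stricter filter and 1 in the fit of 12 libraries (Vegfa, adjusted p = 0.049, 0.043 and 0.028), 2 with DESeq2 itself (Vegfa and Angpt1), and 0 to 2 with 1 library left out. The cause was not tested.

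The values that changed sign were those of Flt1, Flt4, Tek and Angpt2 near 0, none of them called. In Cirrhosis-PTH against Cirrhosis, Flt4 was -0.0128 with DESeq2's size factors, -0.008 in 12 libraries, -0.0087 without Control replicates 7 and 8, -0.0204 in DESeq2, and -0.0334 to 0.0524 with 1 library left out. In Cirrhosis against Control, Flt1 was 0.0182 and Flt4 0.045 without Control replicates 7 and 8, Flt4 0.0053 in DESeq2, and with 1 library left out Flt1 ran from -0.1052 to 0.0049 and Flt4 from -0.0889 to 0.0077. In Cirrhosis-PTH against Control, Tek was 0.0064 with upper-quartile scaling, 0.0077 without a filter and 0.0028 in limma-voom. Without Control replicates 7 and 8, Flt4 was 0.0363 and Angpt2 -0.0082. With 1 library left out, Flt4 ran from -0.0697 to 0.0252, Angpt2 from -0.0129 to 0.3367 and Tek from -0.0506 to 0.0165.

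The replicate numbers did not pair the livers: deviations of same-numbered libraries correlated between -0.0644 and 0.0512. A fit with the replicate number as a block called 8219, 9526 and 1354 genes in Cirrhosis-PTH against Cirrhosis, Cirrhosis against Control and Cirrhosis-PTH against Control, where the fit without it called 8464, 11073 and 1932. It called 5, 5 and 0 members and changed no member's call. Under the block, Flt4 was 0.0067, Angpt2 -0.0481 and Tek 0.0102 in Cirrhosis-PTH against Control. No scaling moved the median change of all genes by over 0.1. Each scaling used sets the bulk of genes near no change, so this cannot show that the values are free of the scaling. The TMM-scaled library size was 70.49 to 105 M in Cirrhosis-PTH, 102.8 to 128.9 M in Cirrhosis and 36.08 to 98.62 M in Control livers. It was above the library's own total in every Cirrhosis liver and below it in every Control liver. A fit on plain library totals was not run. Over the counts outside ribosomal RNA loci, without TMM, Cirrhosis and Control livers overlapped for Vegfa and Kdr. For Flt4, Tek and Tie1 every Cirrhosis liver then lay above every Control liver. The CPM ranges, overlaps and changes given here therefore hold for the TMM-scaled library size, and no test was run without it.

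In Control replicates 7 and 8, the libraries with the fewest counts outside ribosomal RNA loci, Angpt1 and Angpt2 rest on few counts, with 24 the lowest count of Angpt1 in any Control liver and 61 that of Angpt2. Depth limits statements on Pgf in Cirrhosis-PTH and Control livers to the bounds given.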

Other observations

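Marker genes of other cells around the vessels moved as follows. Of 8 quiescent stellate cell genes, 1 rose and 6 fell in Cirrhosis-PTH livers relative to Cirrhosis livers, with a median of -0.59, and 5 rose and 1 fell in Cirrhosis livers relative to Control livers, with a median of 0.64. They summed to 268 to 369 CPM in Cirrhosis-PTH livers, 361 to 414 CPM in Cirrhosis livers and 265 to 313 CPM in Control livers. Pdgfrb, the platelet-derived growth factor receptor of stellate cells and pericytes, had 32.3 CPM in Cirrhosis-PTH livers, 57.9 CPM in Cirrhosis livers and 10.1 CPM in Control livers, and passed in all 3 comparisons. It was singled out after its values were seen. Of 6 smooth muscle and pericyte genes, 3 fell and none rose in Cirrhosis-PTH relative to Cirrhosis, with a median of -0.88, and 4 rose and none fell in Cirrhosis relative to Control, with a median of 1.23. They summed to 12.8 to 20.3 CPM in Cirrhosis-PTH livers, 24.1 to 30.2 CPM in Cirrhosis livers and 8.18 to 15.6 CPM in Control livers.

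Lymphatic markers gave mixed calls: of 5 genes, 1 rose and 1 fell in Cirrhosis-PTH relative to Cirrhosis, and 3 rose and 1 fell in Cirrhosis relative to Control. Prox1, which hepatocytes also express, made up most of their sum, with 172 CPM in Cirrhosis-PTH livers, 123 CPM in Cirrhosis livers and 181 CPM in Control livers. Mmrn1, multimerin-1, had 0.786, 2.71 and 0.994 CPM in those groups and fell by 1.78 in Cirrhosis-PTH relative to Cirrhosis (adjusted p = 0.011). Prox1 and Mmrn1 were singled out after their values were seen. Of 4 platelet and megakaryocyte genes tested, 1 fell in Cirrhosis-PTH relative to Cirrhosis and 2 rose in Cirrhosis relative to Control.

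Of 4 mesothelial markers, genes of the liver's surface lining, 3 rose in Cirrhosis-PTH livers relative to Cirrhosis, with a median of 1.79, the exception being Msln (adjusted p = 0.071). Relative to Control 3 rose, with a median of 2.52, the exception being Upk3b (adjusted p = 0.069), while none passed in Cirrhosis against Control in edgeR's test, with 0 at an unadjusted p under 0.05. In sum they had 4.01 to 22.6 CPM in Cirrhosis-PTH livers, 1.04 to 7.03 CPM in Cirrhosis livers and 0.305 to 4.77 CPM in Control livers, so the groups overlapped.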
